A study of Homo sapiens with 12 samples.

Results

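The interaction of an HDAC3 inhibitor and 5-azacitidine was described in OCI-Ly7 cells, an established cell line from a human diffuse large B-cell lymphoma whose cells resemble germinal-centre B cells. The interaction of a gene is the log2 change that both drugs gave together minus the sum of the log2 changes that each gave alone. It was estimated for the 17869 of 78892 genes in the deposited table that passed a filter on low counts, from all 12 libraries. The 4 groups, named by the sample titles, held 3 libraries each. Vehicle cells received 0 nM 5-azacitidine and 0 µM inhibitor. The inhibitor group received 15 µM of the compound on days 2 and 4. The 5-azacitidine group received 100 nM of that drug every day from day 0 to day 4. The combination group received both, and the harvest of the series is given as day 5. The labels call the compound HDAC3i and give no other name. They do not state that replicate libraries were grown as separate cultures, so each p-value weighs an effect against library-to-library spread alone, part of which may be technical.

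HDAC3 is a histone deacetylase that works inside nuclear co-repressor complexes, and in germinal-centre B cells such complexes are recruited by the repressor BCL6. 5-azacitidine is a cytidine analogue that is incorporated into RNA and, after reduction, into DNA, where it traps DNA methyltransferases and so lowers methylation of cytosine at CpG dinucleotides during replication. Both drugs can therefore raise genes that are held silent by chromatin, and a gene that answers to both can do so by less, as much or more than the separate log2 changes add up to.

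Library totals lay between 35947872 and 36337086 counts, and the share of counts from mitochondrially encoded genes was between 9.59% and 15.29%. It was highest in combination library 3 at 15.29% and 5-azacitidine library 1 at 13.79%. Within a group, the chi-square per degree of freedom between 2 libraries was 3.51 to 6.74 among the vehicle and inhibitor libraries, 24.8 and 27.5 for 5-azacitidine library 1 against libraries 3 and 2, and 9.96 to 16.2 among the combination libraries. The B-cell markers MS4A1, CD79A, CD79B and PAX5 were present in all 12 libraries, MS4A1 at 841 to 1508 CPM, counts scaled to 1000000 per library. The 5 T-cell markers summed to 86.1 to 95.4 CPM in vehicle, 243 to 250 CPM with the inhibitor, 106 to 115 CPM with 5-azacitidine and 239 to 254 CPM with both. Most of this was TRAC. CD3E went from 0.828 to 1.14 CPM in vehicle to 8.12 to 9.96 CPM with both, CD3G from 0.0554 to 0.111 CPM to 2.78 to 3.01 CPM, and CD3D and CD2 reached at most 0.471 and 0.0552 CPM. NK-cell markers were at most 2.38 CPM in sum. The 6 monocyte and granulocyte markers summed to 0.332 to 0.497 CPM in vehicle, 1.41 to 2.02 CPM with the inhibitor, 0.139 to 0.39 CPM with 5-azacitidine and 2.59 to 3.35 CPM with both. Of these, LYZ went from at most 0.0554 CPM in vehicle to 2.04 to 2.38 CPM with both, while S100A8 was 0 in every library. The fibroblast marker COL1A1 went from at most 0.166 CPM in vehicle to 5.06 to 7.28 CPM with both, while COL1A2 and COL3A1 were 0 in every library. The part of these marker levels in the results was not tested. In RNA from bulk cells, fewer cells that express a gene and less of its RNA per cell cannot be told apart.

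Departures from the sum were called in a small share of the genes, which does not show that the others added up. At an adjusted p under 0.05 in edgeR's quasi-likelihood test, 128 genes were called, or 0.716% of those tested. Of these, 47 lay above the sum (0.263%) and 81 lay below it (0.453%), and 2275 genes had an unadjusted p under 0.05. For comparison, the same fit called 51.3% of genes for the inhibitor against vehicle, 9.06% for 5-azacitidine against vehicle and 7.34% for the combination against the inhibitor. The median interaction over all tested genes was 0.01 on the log2 scale. In 125 of the 128 called genes, MIR17HG, SOCS4 and ARRDC3 being the exceptions, every difference between a combination and a 5-azacitidine library lay beyond every difference between an inhibitor and a vehicle library on 1 side. Such separation held for 1006 genes, or 5.63% of all tested.

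**Figure D1:**
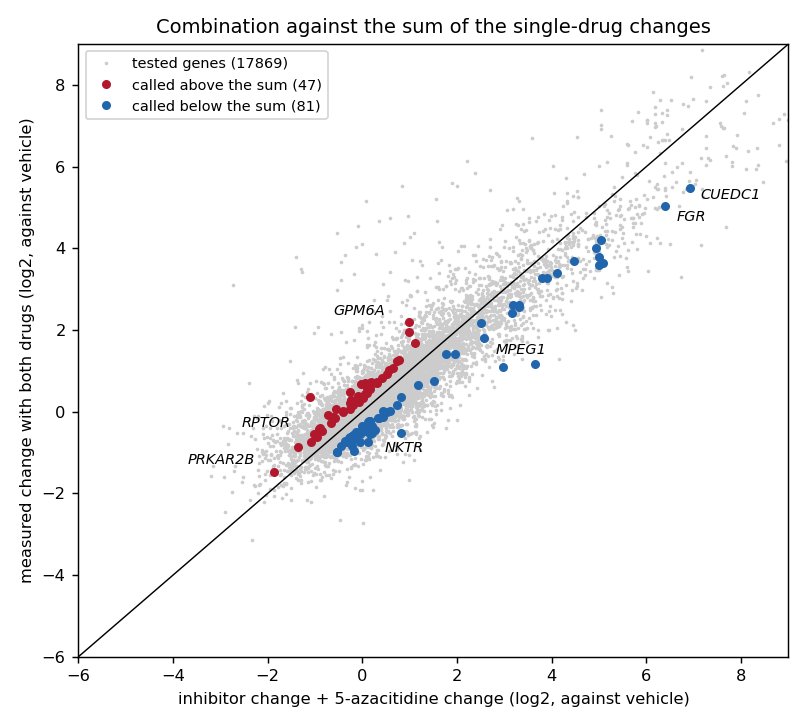
Measured log2 change with both drugs against vehicle (vertical axis) plotted against the sum of the log2 changes with the inhibitor and with 5-azacitidine (horizontal axis), 1 point per gene. The black line marks equality, the 47 genes called above the sum are red and the 81 called below are blue. Both axes run from -6 to 9, and 70 uncalled genes lie outside them.

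Of the 128 called genes, 75 responded less than the sum, meaning that the interaction was opposite in sign to the summed change, and 53 responded more. This split is a description and not a test, because the vehicle libraries enter both the sum and the interaction. The calls depended on single libraries. Without 5-azacitidine library 1 there were 52 genes above and 141 below, and without combination library 2 there were 188 and 501. Every other omission gave fewer calls. They numbered 14 above and 34 below without vehicle library 1, 32 and 57 without vehicle library 2, and 12 and 28 without vehicle library 3. Without inhibitor libraries 1, 2 and 3 in turn they numbered 11 and 35, 12 and 27, and 13 and 24. Without 5-azacitidine libraries 2 and 3 they numbered 10 and 25, and 18 and 35. Without combination libraries 1 and 3 they numbered 15 and 20, and 20 and 51. A core of 25 genes was called in all 12 of these fits, and 58 of the 128 were called in 3 or fewer. The sign of the interaction was the same for 128 of 128 genes in all 26 alternative settings that gave them a value. Settings that change only the threshold on adjusted p keep the log2 values of the main fit. The others reuse most or all of the same libraries on genes already chosen for their values. The same sign was therefore favoured in advance.

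The called genes fell into 3 sets by what each drug did alone. The first set was 23 genes that both drugs raised, all called below the sum. The second was 58 other genes below the sum, of which the combination gave the lowest mean of the 4 groups in 54. The third was the 47 genes above the sum, 45 of them with a negative log2 change under 5-azacitidine alone. Within it the combination gave the highest mean of the 4 groups in 26 genes. Over all tested genes the combination mean was the lowest in 29.1% and the highest in 33.3%. Choosing genes by the sign of the interaction favours both patterns, so these counts are a description.

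In the first set the combination gave less than the log2 sum of 2 rises. Both drugs alone raised 532 tested genes, of which 23 were called below the sum (4.32%) and 0 above. Picking genes raised by each drug alone favours a negative interaction, because those libraries enter it with opposite sign. These counts are therefore a description. The median change of the 23 was 2.52 with the inhibitor alone, 1.03 with 5-azacitidine alone and 2.61 with both, all on the log2 scale. Their median interaction was -0.74, beside -0.24 for all 532 genes. Of the 25 genes called in all 12 leave-one-out fits, 13 belonged to this set: CUEDC1, KLHL14, FGR, PLD4, ADGRG5, FCGR2C, MPEG1, MYBPC2, SP140, SH2D2A, FCER2, FCGR2B and ANKRD36BP2. SP140, SH2D2A, FCGR2C and ANKRD36BP2 are named here after their values were seen.

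FGR, a tyrosine kinase of the Src family found in myeloid and B cells, had the smallest p. Its gene spans chr1:27612064-27635185 on the minus strand of GRCh38. The vehicle libraries held 2.49, 3.17 and 2.06 CPM of FGR and the 5-azacitidine libraries 7.92, 8.14 and 8.79 CPM. The inhibitor libraries held 69.5, 63.1 and 70.8 CPM and the combination libraries 86.6, 83.2 and 83.2 CPM. The combination was thus the highest group with no overlap, yet log2 addition would have placed it at 218 CPM. Its interaction was -1.37 ± 0.13 (SE, log2; adjusted p = 2.1e-06). The promoters of FGR and SP140 are shown, both genes being raised by the methylation-lowering drug and by the deacetylase inhibitor. They were picked by a small adjusted p of the interaction among genes of this set with a promoter entry. CpG content played no part in the choice. SP140 encodes a nuclear body protein of lymphoid cells. The windows run from 250 bases before to 50 bases after the RefSeq start (GRCh38.p14), FGR at chr1:27635136-27635435 on the minus strand and SP140 at chr2:230225486-230225785 on the plus strand. CpG dinucleotides are in capitals.
FGR: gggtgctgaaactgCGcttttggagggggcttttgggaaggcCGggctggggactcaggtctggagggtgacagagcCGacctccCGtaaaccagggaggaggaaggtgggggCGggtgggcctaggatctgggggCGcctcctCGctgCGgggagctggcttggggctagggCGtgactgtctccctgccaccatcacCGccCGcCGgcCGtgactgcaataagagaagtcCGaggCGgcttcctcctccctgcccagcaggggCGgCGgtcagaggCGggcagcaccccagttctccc
SP140: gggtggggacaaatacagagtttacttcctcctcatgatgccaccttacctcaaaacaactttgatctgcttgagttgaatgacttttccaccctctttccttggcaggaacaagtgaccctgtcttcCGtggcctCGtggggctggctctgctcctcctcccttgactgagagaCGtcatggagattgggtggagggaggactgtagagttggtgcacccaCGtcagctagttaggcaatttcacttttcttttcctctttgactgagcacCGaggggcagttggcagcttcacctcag
The FGR window held 18 CpG dinucleotides and the SP140 window 5. Windows of 300 bases with at most 10 CpG made up 16.1% of the 11197 tested genes that had a RefSeq promoter entry, whose median was 26. Only 12 of the 23 genes of this set had an entry, under 80%, so a comparison of the set's CpG content was void.

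SP140 stood at 8.45, 7.53 and 8.67 CPM in vehicle and at 15.8, 16.6 and 15.9 CPM with 5-azacitidine. It reached 69.1, 73.4 and 74.0 CPM with the inhibitor and 83.2, 91.8 and 86.3 CPM with both, against 142 CPM by log2 addition. The groups did not overlap, and the interaction was -0.70 ± 0.10 (adjusted p = 0.000437). CUEDC1, which encodes a protein with a ubiquitin-binding CUE domain (chr17:57861243-57955412), was at 0.525, 0.682 and 0.593 CPM in vehicle and at 2.71, 1.99 and 2.96 CPM with 5-azacitidine. It rose to 16.9, 17.5 and 17.3 CPM with the inhibitor and to 26.7, 25.4 and 28.0 CPM with both. The interaction was -1.45 ± 0.21 (adjusted p = 0.000797), although every combination library lay above every other library.

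MPEG1, the pore-forming perforin-2 of phagocytes and B cells, answered to each drug by about as much (chr11:59208510-59212927). It measured 57.2, 58.4 and 57.7 CPM in vehicle, 141, 143 and 148 CPM with the inhibitor and 140, 140 and 136 CPM with 5-azacitidine. With both drugs it measured 186, 193 and 229 CPM, above both single drugs in all 3 libraries and below the 345 CPM of log2 addition. Its interaction was -0.77 ± 0.09 (adjusted p = 1.75e-05). FCER2, the low-affinity IgE receptor CD23 (chr19:7688758-7702146), measured 12.1, 11.7 and 12.1 CPM in vehicle and 21.3, 24.1 and 25.6 CPM with 5-azacitidine. It measured 89.9, 88.8 and 93.3 CPM with the inhibitor and 116, 118 and 116 CPM with both, again a highest group without overlap. The interaction of FCER2 was -0.63 ± 0.09 (adjusted p = 0.000775).

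Some genes of this set gained nothing that passed the test when 5-azacitidine was added to the inhibitor. FCGR2B, the inhibitory Fc receptor of B cells, had 93.3 to 97.7 CPM with the inhibitor and 99.8 to 103 CPM with both, an added change of 0.09 (adjusted p = 0.376). Given alone, 5-azacitidine raised it by 0.66 (adjusted p = 1.81e-07). FCGR2B and FCGR2C are near-identical copies whose reads the counting could split, so the value of each is uncertain. KLHL14, a kelch-repeat adaptor of a ubiquitin ligase, had 8.43 to 9.84 CPM with the inhibitor and 8.24 to 9.08 CPM with both. Its vehicle libraries held 0.497 to 0.873 CPM and its interaction was -1.40 ± 0.23 (adjusted p = 0.00399). XBP1, a transcription factor of plasma cells and of the unfolded protein response, went from 90.7 to 102 CPM in vehicle to 412 to 418 CPM with the inhibitor and 415 to 437 CPM with both. The interaction of XBP1 was -0.34 ± 0.07 (adjusted p = 0.0242), and it was called in 4 of 12 leave-one-out fits. HEMGN, a nuclear protein of blood progenitors, had 33.3 to 34.6 CPM with the inhibitor and 28.6 to 37.1 CPM with both (interaction -0.72 ± 0.15, adjusted p = 0.0167).

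In PLD4 and BMF the added 5-azacitidine change did pass the test. PLD4, an endolysosomal nuclease, rose by a further 0.79 over the inhibitor (adjusted p = 5.93e-05) where it had risen by 2.00 over vehicle, an interaction of -1.21 ± 0.21 (adjusted p = 0.00504). BMF, a BH3-only promoter of apoptosis, rose by a further 0.72 (adjusted p = 2.89e-07) against 1.23 over vehicle, an interaction of -0.51 ± 0.11 (adjusted p = 0.0294). ADGRG5, an adhesion receptor coupled to G proteins, and MYBPC2, a myosin-binding protein of fast muscle, had interactions of -0.83 ± 0.15 (adjusted p = 0.008) and -0.73 ± 0.09 (adjusted p = 3.44e-05). PARP9, an interferon-induced ADP-ribosyltransferase family member, had -0.93 ± 0.18 (adjusted p = 0.0165). In PARP15, of the same family, the vehicle libraries held only 0.276, 0.709 and 0.48 CPM, and the interaction was -1.45 ± 0.31 (adjusted p = 0.023). Values this low depend on the small count added before taking logs: with a prior count of 2, PARP15 stood at -1.38 and CUEDC1 at -1.36.

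**Figure D2:**
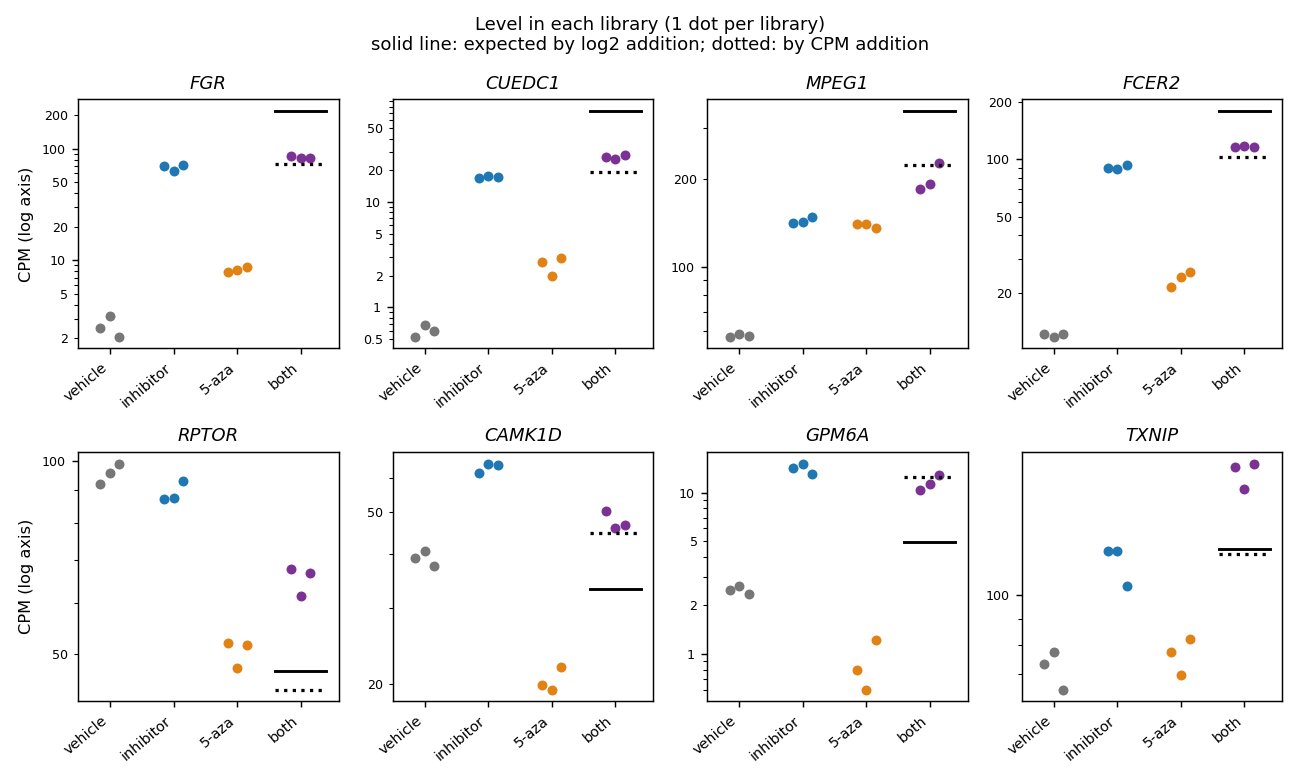
Level of 8 genes in each library in CPM on a log axis, 1 dot per library in vehicle, inhibitor, 5-azacitidine (5-aza) and combination (both). The solid line is the level expected from adding log2 changes and the dotted line that from adding CPM. FGR, CUEDC1, MPEG1 and FCER2 lie under the solid line, and RPTOR, CAMK1D, GPM6A and TXNIP above it.

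The scale of addition mattered for this set. On the CPM scale, where the expected level is the inhibitor plus the 5-azacitidine level minus vehicle, 11 of the 23 genes lay above the sum. FGR was expected at 73.5 CPM and CUEDC1 at 19.2 CPM on this scale, both under their measured levels. FCER2 was expected at 102 CPM and SP140 at 80.1 CPM, also under the measured levels, while MPEG1 was expected at 225 CPM, which 1 of its 3 libraries exceeded. Of the 23 genes, 12 were higher with both drugs than with the inhibitor alone at an adjusted p under 0.05, and 1, the transcript ANKRD36BP2, was lower. Among all 384 genes of at least 5 CPM that both drugs raised, 331 had a negative interaction and 223 lay above the CPM sum. Among the 472 that both drugs lowered, 447 had a positive interaction. Because the vehicle libraries are shared by both single-drug changes and the interaction, these counts describe the libraries and are not a test.

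The genes moved most by both drugs all had a negative interaction, and 3 of 6 were called in edgeR. The vehicle and single-drug libraries enter the summed change and, with opposite sign, the interaction. Picking a large summed rise thus favours a negative interaction, and these counts are a description. By the rule of the largest summed change, CUEDC1, FGR, ADGRG5, CDKN1A, FCRL3 and RGS8 were named whatever their interaction, and the latter 3 were not called. CDKN1A, the p21 inhibitor of cyclin-dependent kinases, had 0.791 to 1.19 CPM in vehicle, 30.6 to 36.7 CPM with the inhibitor, 2.49 to 3.26 CPM with 5-azacitidine and 60.8 to 66.0 CPM with both. Its interaction was -0.66 ± 0.19 (adjusted p = 0.0956). FCRL3, an Fc receptor-like protein of B cells, had -0.64 ± 0.23 (adjusted p = 0.205). RGS8, a regulator of G-protein signalling, rose to 25.5 to 29.4 CPM against 31.0 CPM by log2 addition, an interaction of -0.16 ± 0.20 (adjusted p = 0.808).

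Among the genes above the sum, 5-azacitidine alone gave a negative change in 45 of 47. Over the inhibitor it gave a negative change in 14 and a positive one in 33. Choosing genes for a positive interaction favours these signs, so the counts are a description. Of 130 tested genes that the inhibitor raised and 5-azacitidine lowered, 17 were called above the sum (13.1%) and 0 below. Of the 245 that 5-azacitidine alone lowered, 9 were called above (3.67%), and of the 474 that both lowered, 8 were (1.69%). Over all tested genes 0.263% were called above. The single-drug libraries that define these classes also enter the interaction, and a lowered level under 5-azacitidine favours a positive value. These shares are therefore a description and not a test. The median change of the 47 genes under 5-azacitidine was -0.36 against vehicle and 0.12 against the inhibitor. The 47 genes had a median span of 78.5 kb and the 17 genes one of 164 kb, beside 23.8 kb over all tested genes and 32.8 kb over those of at least 5 CPM. Among genes of at least 5 CPM, 4 of 148 that span over 400 kb were called above and 0 below, and 9 and 2 of 474 that span 200 to 400 kb. Under 25 kb, 10 of 4299 were called above and 22 below, and 46 of all 10388 such genes were called above. The median interaction was 0.08 in genes over 400 kb and 0.03 in those of 200 to 400 kb, as it was in genes under 25 kb. The part of gene span in the result was not tested. In those of over 400 kb the median 5-azacitidine change was -0.20 without and -0.13 with the inhibitor.

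RPTOR encodes raptor, the defining subunit of the growth kinase complex mTORC1, and spans chr17:80544819-80966371, 422 kb. Its levels were 92.1, 95.8 and 99.0 CPM in vehicle and 87.2, 87.4 and 93.0 CPM with the inhibitor. They fell to 51.9, 47.5 and 51.7 CPM with 5-azacitidine and stood at 67.8, 61.5 and 66.9 CPM with both. The combination lay between, with no overlap with either side. 5-azacitidine lowered RPTOR by 0.93 alone and by 0.45 over the inhibitor, an interaction of 0.48 ± 0.08 (adjusted p = 0.00504), and it was called in all 12 leave-one-out fits. Its promoter is shown beside those of FGR and SP140 as that of a gene that the same drug lowered, at chr17:80544588-80544887 on the plus strand, from RefSeq (GRCh38.p14), with CpG in capitals.
RPTOR: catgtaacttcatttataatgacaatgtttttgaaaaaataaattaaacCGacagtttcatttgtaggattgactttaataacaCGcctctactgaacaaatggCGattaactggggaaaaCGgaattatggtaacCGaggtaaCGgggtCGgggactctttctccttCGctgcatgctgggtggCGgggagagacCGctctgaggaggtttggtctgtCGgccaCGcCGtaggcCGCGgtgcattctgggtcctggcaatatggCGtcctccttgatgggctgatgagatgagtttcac
This window held 16 CpG dinucleotides, 2 fewer than that of FGR.

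CAMK1D, a calcium- and calmodulin-dependent kinase (chr10:12349547-12835545, 486 kb), moved in opposite directions with the 2 drugs. It measured 39.1, 40.7 and 37.4 CPM in vehicle, 61.5, 64.7 and 64.2 CPM with the inhibitor and 19.9, 19.4 and 21.9 CPM with 5-azacitidine. With both it measured 50.3, 45.9 and 46.5 CPM, above vehicle in every library, where log2 addition gave 33.1 CPM. The interaction was 0.52 ± 0.09 (adjusted p = 0.00597). GPM6A, a membrane glycoprotein best known from neurons (chr4:175632934-176002664, 370 kb), measured 2.49, 2.65 and 2.37 CPM in vehicle and 14.2, 15.1 and 13.0 CPM with the inhibitor. 5-azacitidine alone took it to 0.800, 0.601 and 1.22 CPM, while with both drugs it stood at 10.4, 11.3 and 12.8 CPM. The fall of 1.51 that 5-azacitidine gave alone was thus 0.30 over the inhibitor (adjusted p = 0.112 for the latter), and the interaction was 1.21 ± 0.23 (adjusted p = 0.00894).

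SNX29, a sorting nexin of 598 kb, and GMDS, the first enzyme of GDP-fucose synthesis, of 622 kb, followed the same course. Both are named after their values were seen. SNX29 fell by 0.56 with 5-azacitidine and had an interaction of 0.47 ± 0.09 (adjusted p = 0.00845), and GMDS fell by 0.62 and had 0.48 ± 0.09 (adjusted p = 0.0151). STX8, a syntaxin of endosomes, had 21.6 to 24.2 CPM in vehicle, 12.6 to 13.8 CPM with 5-azacitidine and 16.7 to 17.0 CPM with both, an interaction of 0.47 ± 0.11 (adjusted p = 0.0337). GNG7, a G-protein gamma subunit, had 13.0 to 15.0 CPM with 5-azacitidine and 48.2 to 55.5 CPM with both (0.51 ± 0.11, adjusted p = 0.0197). PRKAR2B, a regulatory subunit of protein kinase A, was lowered by both drugs and had an interaction of 0.40 ± 0.08 (adjusted p = 0.0167). In a list compiled under the name of long fragile-site genes, 4 of 13 tested members were called above (RPTOR, CAMK1D, STX8 and PRKAR2B) and 0 below. Whether each member lies at a fragile site was not tested. FHIT (0.08), WWOX (-0.005), MACROD2 (-0.15), IMMP2L (-0.18) and DMD (-0.24) were not called in edgeR, and 9 of the 13 had a positive interaction. Over all tested genes 0.263% were called above, and DESeq2 called 5 of the 13. The list's median interaction was 0.15 against 0.01 over all tested genes. It was 0.14 to 0.17 with DESeq2 size factors, library totals or the offset for GC content and length. Without the 2 libraries of highest mitochondrial share it was 0.06, with 8 of 13 positive. That list was drawn up with earlier results of these libraries known and is no independent evidence of its direction.

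HDAC3, the target of the inhibitor, did not pass the test in any comparison, at 87.4 to 92.9 CPM with the inhibitor, 83.5 to 89.6 CPM with 5-azacitidine and 92.3 to 93.2 CPM with both (interaction 0.09 ± 0.07, adjusted p = 0.665).

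Other genes above the sum rose when 5-azacitidine was added to the inhibitor, while its change alone did not pass the test. TXNIP, an inhibitor of thioredoxin and of glucose uptake, had 65.3 to 77.4 CPM in vehicle, 104 to 122 CPM with the inhibitor, 69.7 to 82.0 CPM with 5-azacitidine and 162 to 182 CPM with both (interaction 0.50 ± 0.10, adjusted p = 0.0167). KLHL6, a kelch-family protein of germinal-centre B cells, had 247 to 259 CPM with the inhibitor and 277 to 307 CPM with both (0.33 ± 0.07, adjusted p = 0.0242). SLC7A8, a transporter of neutral amino acids, rose from 34.1 to 39.2 CPM with the inhibitor to 44.4 to 52.2 CPM with both (0.56 ± 0.12, adjusted p = 0.0242).

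The other genes that the rule named above the sum were SOX2, a transcription factor of stem and neural cells (0.54 ± 0.12, adjusted p = 0.0337), ABAT, the GABA transaminase (0.71 ± 0.17, adjusted p = 0.0445), and AAK1, a kinase of clathrin-coated pits (0.75 ± 0.18, adjusted p = 0.0448). STARD9, ARID5A and GGT7 had interactions of 0.56, 0.60 and 0.98. In the leave-one-out fits of edgeR, AAK1, STARD9 and GGT7 stayed called only without combination library 2. Their adjusted p reached 0.175, 0.110 and 0.133 in those fits. That of SOX2, ABAT and ARID5A reached 0.116, 0.119 and 0.113, so these calls too depended on single libraries. GGT7 was measured at only 0.943 to 1.248 CPM with 5-azacitidine. LGMN, the lysosomal protease legumain, was the 1 member of 22 MHC class II genes called in edgeR (0.38 ± 0.08, adjusted p = 0.0242). It had 78.2 to 82.6 CPM with both drugs against 67.7 to 70.2 CPM with the inhibitor. The median of the 22 was 0.03, with 12 positive. DESeq2 called 2, LGMN and HLA-DQA2, and the latter lay below the sum (-0.61).

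**Figure D3:**
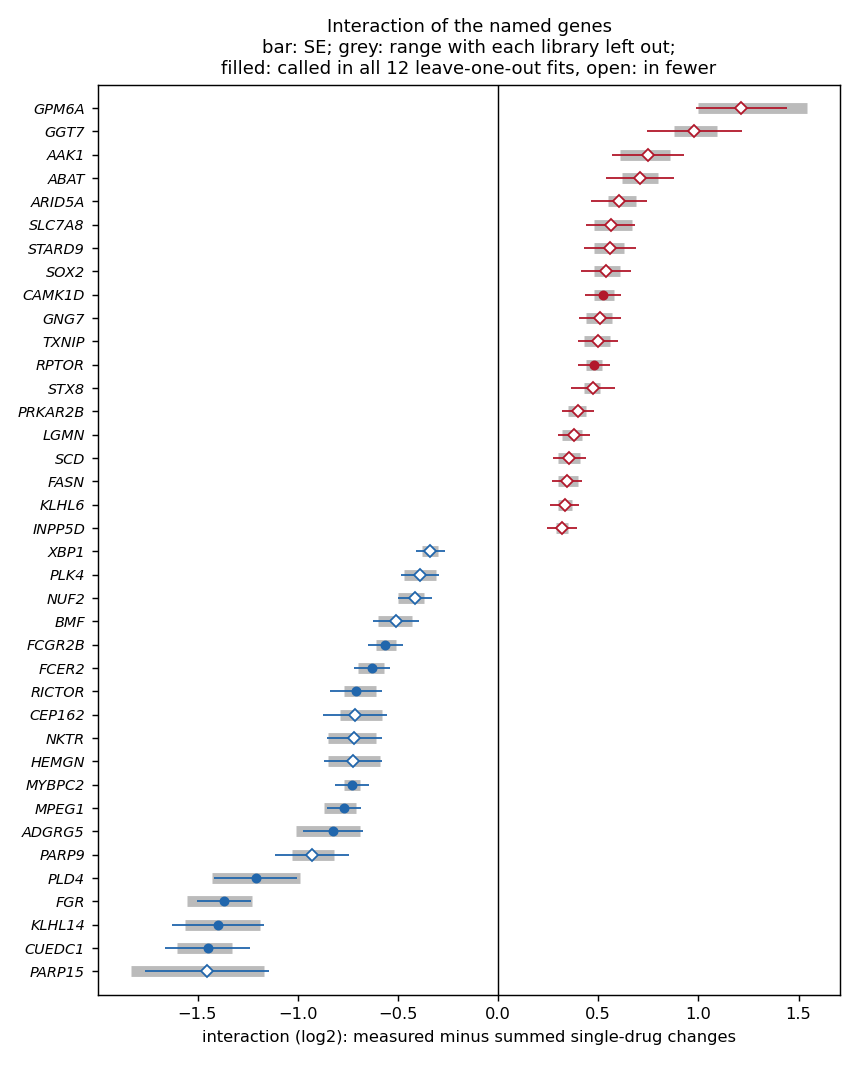
Interaction on the log2 scale (horizontal axis) of the called genes reported here that the rule named, 1 gene per line, with its SE as a bar and the range over the 12 leave-one-out fits in grey. Filled circles mark genes called in all 12 of those fits and open diamonds those called in fewer. No grey range crosses 0.

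Genes of cholesterol and fatty acid synthesis leaned above the sum. Of 33 tested, 2 were called above and 0 below in edgeR, DESeq2 called 4, 28 had a positive interaction and the median was 0.18. At an unadjusted p under 0.05, 13 of the 33 lay above the sum and 0 below, beside 6.09% above and 6.64% below over all tested genes. The median stayed between 0.15 and 0.17 with DESeq2 size factors, library totals, an offset for GC content and gene length, or the 2 libraries of highest mitochondrial share left out. SCD, the stearoyl-CoA desaturase, had 508, 518 and 497 CPM in vehicle, 552, 589 and 548 CPM with the inhibitor, 530, 470 and 468 CPM with 5-azacitidine and 685, 647 and 750 CPM with both. Its combination libraries lay above all others, and the interaction was 0.36 ± 0.08 (adjusted p = 0.0338). FASN, the fatty acid synthase, had 544, 559 and 563 CPM in vehicle, 371, 379 and 382 CPM with the inhibitor, 410, 418 and 440 CPM with 5-azacitidine and 384, 334 and 375 CPM with both. Adding 5-azacitidine to the inhibitor left FASN within overlapping ranges, and the interaction was 0.34 ± 0.07 (adjusted p = 0.025). SCD and FASN were called in 2 and 3 of 12 leave-one-out fits, and FASN was not called with the GC and length offset.

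**Figure D4:**
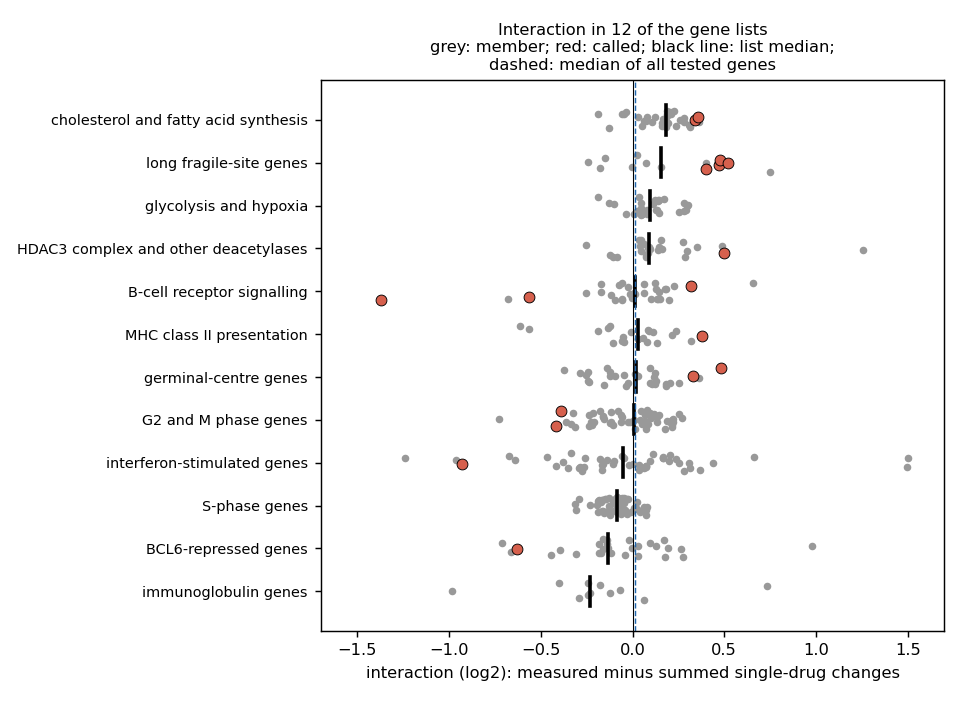
Interaction on the log2 scale of the tested members of 12 gene lists, 1 point per gene, with called genes in red and the list median as a black line. The median of cholesterol and fatty acid synthesis lies at 0.18 and that of S-phase genes at -0.08, and 8 members beyond 1.7 in either direction are not drawn.

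The other set below the sum had a different shape: the single-drug changes were small, and the combination was the lowest group in most of the genes. The 58 genes had median log2 changes of -0.18 with the inhibitor, 0.16 with 5-azacitidine and -0.52 with both, and a median interaction of -0.46. Of them, 22 passed no single-drug test, 23 were lowered by the inhibitor alone and 5 were lowered by the inhibitor and raised by 5-azacitidine. All 58 had a negative change with both drugs against the inhibitor, while 56 had a positive change under 5-azacitidine alone. Choosing genes for a negative interaction favours both signs, so these counts are a description. RICTOR, the subunit that defines the kinase complex mTORC2 (chr5:38937920-39074402), had 16.1, 14.4 and 14.5 CPM in vehicle, 13.9, 14.9 and 16.4 CPM with the inhibitor and 17.9, 18.3 and 18.0 CPM with 5-azacitidine. With both it had 9.45, 11.9 and 11.8 CPM, below every other library, and its interaction was -0.71 ± 0.13 (adjusted p = 0.008). It was called in all 12 leave-one-out fits, as RPTOR was in the opposite direction.

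NKTR, a cyclophilin of the nucleus, had 81.2, 87.3 and 78.9 CPM in vehicle, 72.2, 70.3 and 87.7 CPM with the inhibitor, 85.5, 113.8 and 98.3 CPM with 5-azacitidine and 47.6, 66.2 and 54.7 CPM with both. Its combination libraries were the lowest 3, and the interaction was -0.72 ± 0.14 (adjusted p = 0.0111). CEP162, a protein of centrioles and cilia, had 8.36 to 9.604 CPM in vehicle and 5.01 to 6.84 CPM with both (-0.71 ± 0.16, adjusted p = 0.0293). The other genes of this set called in all 12 leave-one-out fits, named after their values were seen, were MIR17HG, the host transcript of the miR-17 to miR-92 cluster (-0.85 ± 0.15), ATM, the kinase of the DNA break response (-0.55 ± 0.10), RBM25, a splicing factor (-0.49 ± 0.08), ZFC3H1, a factor of nuclear RNA decay (-0.48 ± 0.09), and ELK4, a transcription factor (-0.48 ± 0.09). RBM25 measured 236 to 249 CPM in vehicle, 176 to 194 CPM with the inhibitor, 267 to 280 CPM with 5-azacitidine and 135 to 163 CPM with both, groups without overlap. NUF2, a kinetochore protein, and PLK4, the kinase of centriole duplication, were the 2 of 56 G2 and M phase genes called in edgeR. Their interactions were -0.42 ± 0.09 (adjusted p = 0.0176) and -0.39 ± 0.10 (adjusted p = 0.049). Over all tested genes 0.453% were called below. The list as a whole did not lean below the sum, with a median of 0.01 and 29 of 56 positive, but members departed in both directions. At an unadjusted p under 0.05 were 18 of the 56, 9 of them above the sum. The shares over all tested genes were 6.09% above and 6.64% below. DESeq2 called 7 genes of the list and limma voom 1. Of those 7, GTSE1 (0.27) and ESPL1 (0.25) lay above the sum.

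The 58 genes of this second set were poor in GC. The median GC content of their exons was 38.3%, in a range of 33.4% to 44.2%, against 48.7% over the tested genes with a value. Of the 75 genes called below with a GC value and at least 5 CPM, 54 lay in the lowest quartile of GC content, and of the 46 called above 2 did. The median interaction of all 2547 genes in that quartile was -0.11, and 0.09 in the highest quartile. The libraries of the combination group also differed among themselves in these genes: the median deviation of the second set from its group mean was -0.13 in library 1 and 0.15 in library 2, beside -0.08 and 0.10 for the whole lowest quartile. With an offset for GC content and length, an alternative added after seeing the data, 25 of the 58 genes were still called, 21 of the 23 genes that both drugs raised and 25 of the 47 above the sum. RICTOR, NKTR, ATM, RBM25, ZFC3H1, ELK4 and MIR17HG were among those still called. The part of GC content in the result was not tested beyond this offset.

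**Figure D5:**
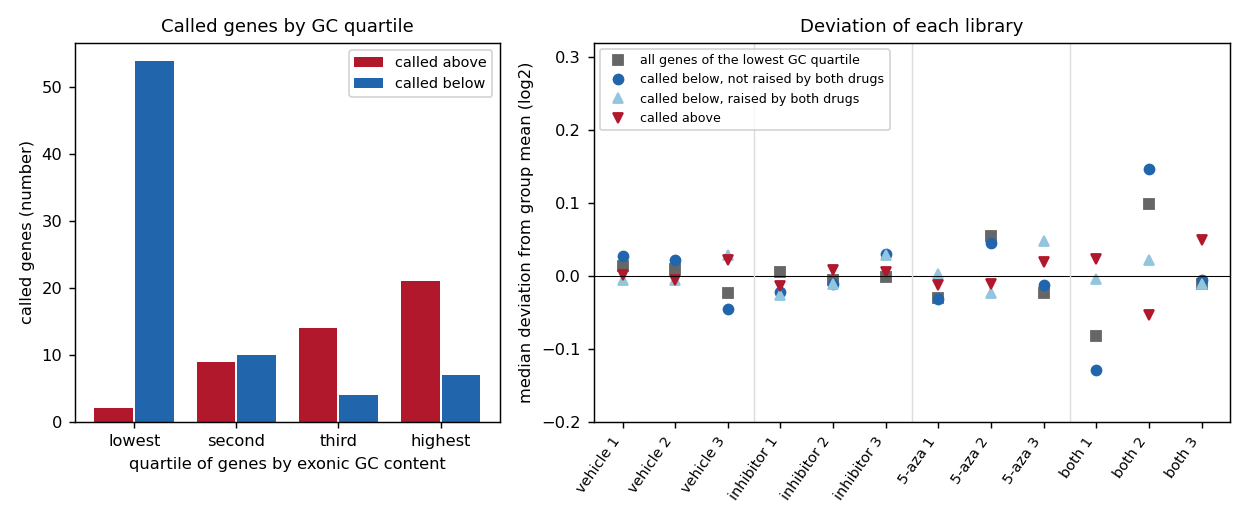
Left, the number of called genes in each quartile of tested genes by exonic GC content. Right, the median deviation of each library from its group mean on the log2 scale for the whole lowest GC quartile and for the 3 sets of called genes. The lowest quartile holds 54 genes called below and 2 called above, and combination libraries 1 and 2 deviate to opposite sides.

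The remaining lists held few genes called in edgeR. Of 38 lists, 24 had no member called in edgeR. Of these 24, 21 had members at an unadjusted p under 0.05, DESeq2 called members in 14 and limma voom in 1. Over all tested genes, 6.09% lay above and 6.64% below the sum at an unadjusted p under 0.05. DESeq2 also called more genes than edgeR over all tested genes, and its counts over all of them are given in the closing section. Whether the DESeq2 calls in a list exceed that share was not tested. In B-cell receptor signalling, FGR and FCGR2B were called below and INPP5D, the phosphatase SHIP1, above (0.32 ± 0.07, adjusted p = 0.0404), the median of the 33 genes was 0.015, and DESeq2 called 4. Of 52 interferon-stimulated genes, PARP9 was called below and 0 above in edgeR, with a median of -0.05, and DESeq2 called 3. Of the 52, 24 had a positive interaction and 12 had an unadjusted p under 0.05, 5 of these above the sum. Of 31 genes known to be repressed by BCL6, FCER2 was called below and 0 above in edgeR, with a median of -0.13, and DESeq2 called 3. Of the 31, 11 had a positive interaction and 10 had an unadjusted p under 0.05, 2 of these above the sum and the others below. The 11 tested immunoglobulin genes had a median of -0.23 and 0 calls in edgeR, with 4 at an unadjusted p under 0.05 and 2 called by DESeq2 (JCHAIN and IGHD), and 2 had a positive interaction. S-phase genes, which the inhibitor lowered by a median of 0.20, had 0 calls of 54 in edgeR, but 46 had a negative interaction, with a median of -0.08 and a range of -0.31 to 0.08. At an unadjusted p under 0.05, 10 of the 54 lay below the sum and 0 above, and DESeq2 and limma voom each called 1. Of 32 genes of glycolysis and hypoxia, 0 were called in edgeR, 4 had an unadjusted p under 0.05, DESeq2 called HK1, and 28 had a positive interaction.

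Among 10 regulators followed whatever their value, 0 were called in edgeR, 3 had an unadjusted p under 0.05 and DESeq2 called CDKN1A. BCL6, the repressor of the germinal-centre programme, had an interaction of 0.20 ± 0.07 (adjusted p = 0.218), and PRDM1, the plasma-cell factor it represses, -0.14 ± 0.17 (adjusted p = 0.805). DNMT1, the maintenance methyltransferase that 5-azacitidine traps, had 775 to 792 CPM in vehicle and 721 to 813 CPM with both drugs (interaction 0.10 ± 0.07, adjusted p = 0.618). The values were 0.18 ± 0.12 for DNMT3B, -0.04 ± 0.13 for DNMT3A, 0.07 ± 0.07 for UHRF1, which guides DNMT1 to hemimethylated DNA, and 0.13 ± 0.10 for CIITA, the master activator of MHC class II genes.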

How the data were processed

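Poly(A) RNA of 12 libraries was sequenced. Per the submitters' processing notes, alignment used STAR 2.7.11b after cutadapt 5.1 and counting Subread 2.1.2, on GRCh38. The authors deposited expected counts per gene: per the file headers, featureCounts 2.1.1 counted over exons of the release 114 annotation, gave multi-mapping reads fractional weight and ignored strand, so overlapping and antisense genes cannot be told apart. The header does not settle if counts are of single reads or of read pairs. Of the values, 96.9% were whole within 1e-06. Counts were rounded. A count of 0 in a library allows up to 3 counts, 0.0826 to 0.0834 CPM.

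In R 4.3.3, edgeR 4.0.16 kept 17869 genes with filterByExpr on the 4 groups (99.93% of counts), scaled libraries by TMM, fitted 1 mean per group and tested contrasts with its two-sided quasi-likelihood F-test. Each adjusted p is by Benjamini-Hochberg over every tested gene. The biological coefficient of variation was 6.05%. CPM used TMM-scaled library sizes. GC content (89.5% of tested genes had a value) and biotypes came from GENCODE 29, promoters from RefSeq (GRCh38.p14), and gene positions from the deposited table.

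The members and lists were chosen with earlier results of these data known. Named genes were, among called protein-coding genes with at least 5 CPM in the highest group and 0.5 CPM in every group, the 12 largest interactions in each direction; up to 4 in each direction with a group under 0.5 CPM; 10 regulators; up to 4 called members of each list; and the 6 genes of at least 5 CPM moved most by both drugs. Alternatives were DESeq2 1.42.0 and its size factors, limma 3.58.1 voom, library totals, other filters and thresholds, blocks, and leaving out libraries or mitochondrially encoded genes. The fits were tested on simulated data. Some genes are not reported here. Python 3.11.15, numpy 2.4.6, pandas 2.3.3 and matplotlib 3.10.9 drew tables and figures.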

Additional observations from a re-analysis of the deposited data

Results flagged for a closer look

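The inhibitor's effect differed between cells with and without 5-azacitidine by the test of that difference in 47 genes above and 81 genes below the sum. Among the genes named by size, this test marked GPM6A (1.21), GGT7 (0.98), AAK1 (0.75), ABAT (0.71), ARID5A (0.60), SLC7A8 (0.56), STARD9 (0.56), SOX2 (0.54), CAMK1D (0.52), GNG7 (0.51) and TXNIP (0.50) as above the sum on the log2 scale. Below it were PARP15 (-1.45), CUEDC1 (-1.45), KLHL14 (-1.40), FGR (-1.37), PLD4 (-1.21), PARP9 (-0.93), ADGRG5 (-0.83), MPEG1 (-0.77), MYBPC2 (-0.73), HEMGN (-0.72), NKTR (-0.72), CEP162 (-0.71) and RICTOR (-0.71). Of the genes listed above the sum, only CAMK1D was called in all 12 leave-one-out fits. Of those listed below it, PARP15, PARP9, HEMGN, NKTR and CEP162 were not called in all of them.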

How the results depend on the processing

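Counts are given as genes above, below, less than and more than the sum, from 47, 81, 75 and 53. They were 7, 19, 22 and 4 at an adjusted p under 0.01, 110, 204, 191 and 123 at 0.10, 73, 241, 186 and 128 without a low-count filter, and 0, 7, 7 and 0 against a fold threshold of 1.2. DESeq2 gave 106, 282, 238 and 150. Its size factors gave 123 below, and library totals 24 above. A filter of 5 CPM gave 135 below and 128 less. Without 5-azacitidine library 1 and combination library 3, which had the highest mitochondrial shares, there were 28 above, and the GC and length offset, added after seeing the data, 24 more than the sum. Leaving out 1 library gave 10 to 188 above, 20 to 501 below, 27 to 374 less and 5 to 315 more. Whether the title numbers pair the libraries was not settled. The r of residuals was -0.211 to 0.375 in 18 same-numbered pairs (median 0.054) and -0.322 to 0.302 in 36 others (median -0.005). With title numbers as a replicate block the counts were 46, 88, 79 and 55. Pairs sharing the digit that ends each library's own name had a median r of 0.073, and the others -0.011. A block by that digit gave 61, 166, 120 and 107. limma voom (41, 78, 71 and 48) and leaving out mitochondrially encoded genes stayed within 1.5 times. The interaction of DNMT3A, which was not called, ranged from -0.12 to 0.05 with 1 library left out, turning to 0.05 without 5-azacitidine library 3 and 0.03 without combination library 2, and that of UHRF1 to -0.01 with the GC offset. The cause of these shifts was not tested. With 3 libraries a group, errors cover these libraries only.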
